A study of Mus musculus with 12 samples.

Results

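Immediate early genes were followed here in microglia that had been released from the mouse cerebral cortex by enzyme digestion. The 10 genes, *Fos*, *Fosb*, *Jun*, *Junb*, *Egr1*, *Atf3*, *Ier2*, *Dusp1*, *Nr4a1* and *Btg2*, were taken by name, as genes known to rise in enzyme-digested microglia, out of 55487 genes in the count table. All of them passed the filter on low counts, as did 15425 genes in all. The cells were CD11b-positive cells bound to magnetic beads after cortical tissue of male mice had spent 40 min at 37 °C in papain, and they were kept in RNAlater before RNA extraction. The 12 libraries fall into groups of 3 mice each, which the labels name by strain (WT or App NL-G-F) and by treatment (Veh or BRICHOS). They are called WT veh, WT BRICHOS, App NL-G-F veh and App NL-G-F BRICHOS mice. WT mice were of the C57BL/6J background, and App NL-G-F mice carry a knocked-in App gene with a humanized Aβ sequence and 3 mutations of familial Alzheimer's disease, so that amyloid forms at physiological App expression. BRICHOS mice received rh Bri2 BRICHOS R221E, a recombinant human chaperone domain of the Bri2 protein with a single exchanged amino acid, and veh mice received PBS. Injections began at 9 months of age, 24 intravenous injections of 10 mg/kg or of PBS were given over 12 weeks, and a further 4 weeks passed without treatment. All cells of all groups were digested, and no library of undigested tissue was analysed here, so the rise that digestion itself gives was not measured. What was compared is the level of these genes between the groups and between mice of the same group.

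Immediate early genes are transcribed within minutes of a stimulus without the need for new protein, because the factors that switch them on, among them SRF with its ELK partners and CREB, already sit in the cell and are activated by phosphorylation. Their products are mostly transcription factors, such as the AP-1 dimers of Fos and Jun proteins, together with feedback inhibitors such as the phosphatase encoded by *Dusp1*. Their mRNAs decay fast, so their level reflects the last minutes to hours. In microglia, warm enzyme digestion is a stimulus in itself, and these genes are used as a sign of it.

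The libraries held between 12433402 and 17889654 counted reads. Levels are given as CPM, the count of a gene relative to the total of its library after TMM scaling. The smallest level taken as detectable was 3 counts, a limit that covers counting error only. Relative to the library totals alone, without the TMM factor, it corresponded to 0.168 to 0.241 CPM. The lowest count of any of the 10 genes in any library was 4183, for *Ier2*, so counting error was small for each of them. Mice of a group differed by more than counting error over all genes (chi-square per degree of freedom 5.81 to 34.1). The label of microglia was checked against 10 markers such as *Cx3cr1*, *P2ry12* and *Tmem119*, all of which were detected, with summed levels of 25596 to 31252 CPM. Markers of other cell types were present too and differed between the strains. The summed level of 8 astrocyte markers was 427 to 780.3 CPM in WT libraries and 652 to 4504 CPM in App NL-G-F libraries. That of 8 neuronal markers, 7 of which were tested, was 20.7 to 31.7 against 7.03 to 9.57 CPM, and that of 6 markers of border macrophages was 389 to 629 against 165 to 224 CPM. All 8 astrocyte markers passed the test as higher in App NL-G-F veh than in WT veh mice, but only 1 of 8 did so between the BRICHOS groups. Of the neuronal markers, 5 and 6 of 7 were lower in these comparisons, at most 1 of them was at 0 in a library, and all 6 border macrophage markers were lower in both. Of the microglial markers themselves, 2 were higher and 7 lower in App NL-G-F veh mice. In bulk samples, fewer cells of a type and less RNA per cell cannot be told apart.

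Together the 10 genes took between 1.30% and 1.97% of all counted reads of a library. Levels were compared between genes as CPM per kb of exon. On that scale *Junb*, an AP-1 subunit, was the highest with a mean of 1410 CPM per kb over the 12 libraries, and it was the 21st of 15425 tested genes. *Jun* followed with 807 CPM per kb, *Atf3* with 691, *Fos* with 613, *Egr1* with 558 and *Btg2* with 545 CPM per kb. Lower were *Nr4a1* with 326, *Ier2* with 296, *Dusp1* with 238 and *Fosb* with 114 CPM per kb, and *Fosb* was still the 339th of all tested genes. Not every step in this order was clear. *Junb* was above *Jun*, *Btg2* above *Nr4a1* and *Dusp1* above *Fosb* in 12 of 12 libraries, and *Ier2* was above *Dusp1* in 11. Other steps held in 1 strain but not in the other. *Jun* was above *Atf3* in 6 of 6 WT but in 1 of 6 App NL-G-F libraries, and *Egr1* above *Btg2* likewise in 6 of 6 and in 1 of 6. *Atf3* exceeded *Fos* in 2 WT and 5 App NL-G-F libraries, *Fos* exceeded *Egr1* in 3 and 6, and *Nr4a1* exceeded *Ier2* in 5 and 4. The order by means over the 12 libraries is thus not that of each strain. The ranges over all libraries overlapped for every pair of neighbours in the order.

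**Figure D1:**
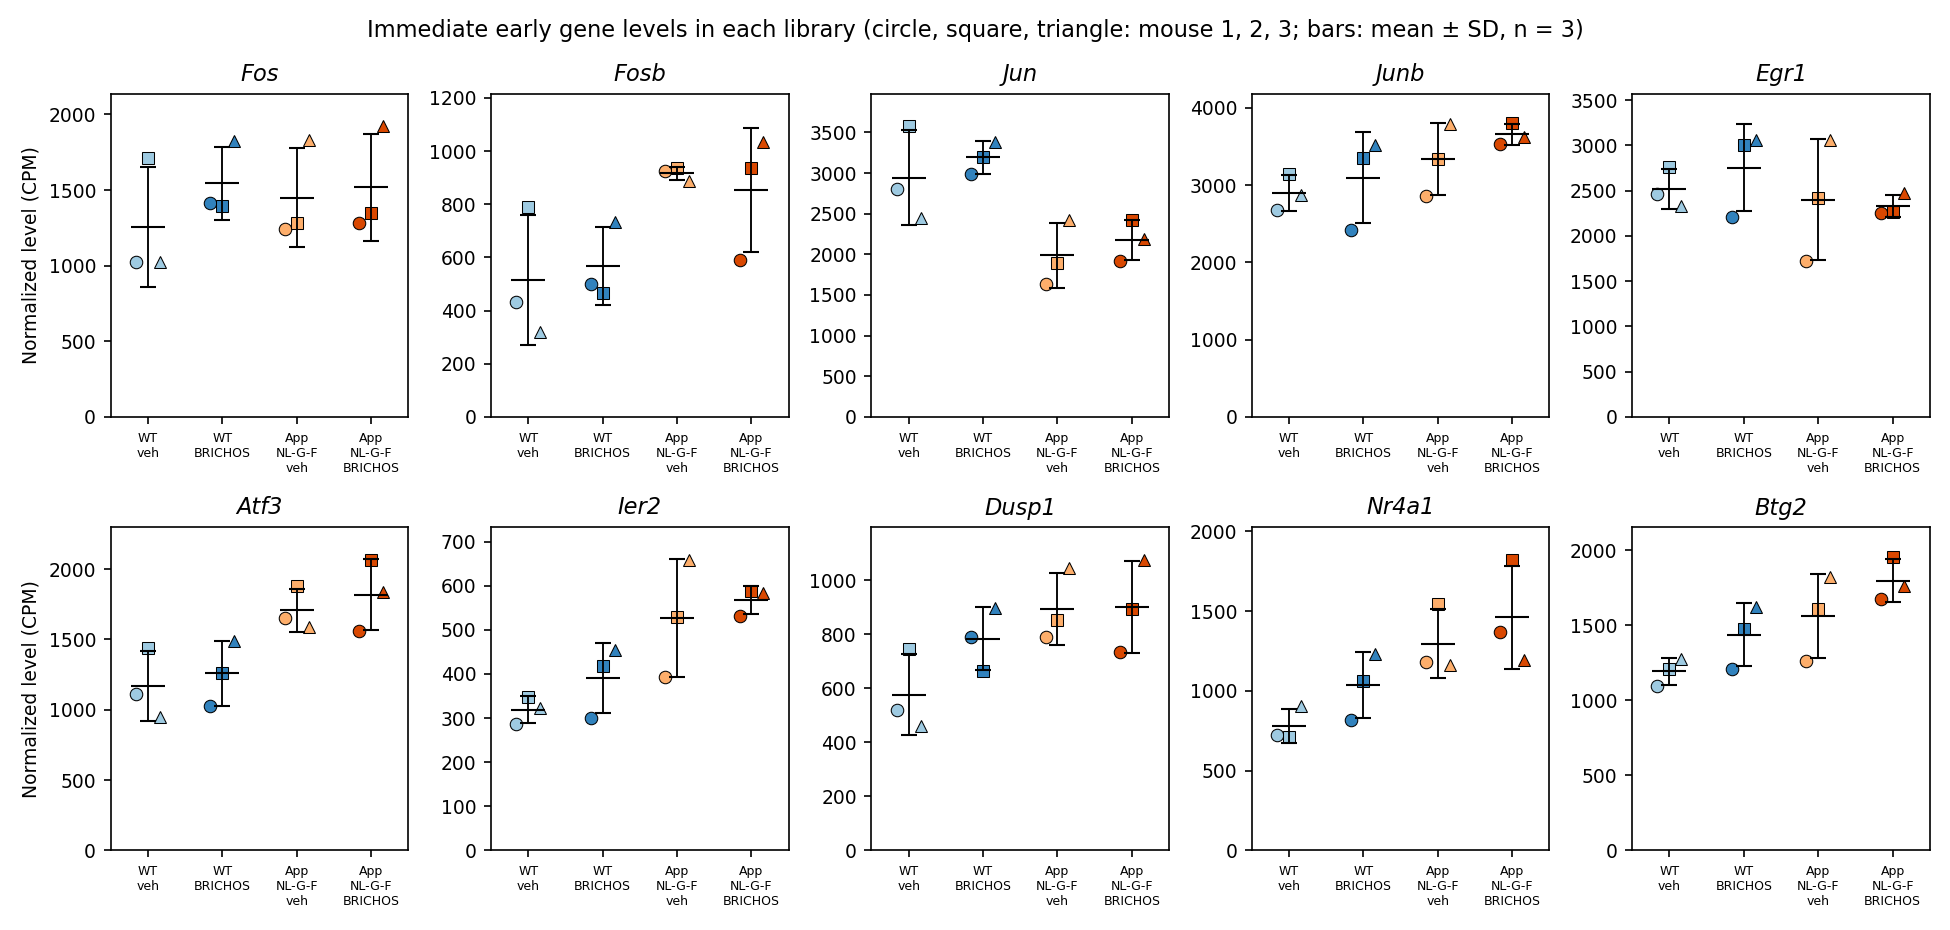
Normalized level (CPM, y axis) of each gene in the 12 libraries, by group (x axis). Each symbol is a mouse, and the horizontal line and bars are the mean ± SD of n = 3. *Jun* lies lower in all 6 App NL-G-F libraries than in any WT library, *Atf3* lies higher in all 6, and the other 8 genes overlap between the strains.

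The genes are described here by what their products do, first between the strains. *Fos* (ENSMUSG00000021250, chr12:85473890-85477273 of GRCm38, plus strand) encodes the AP-1 subunit for which the family is named. Its level was 1025, 1711 and 1027 CPM in the WT veh mice 1, 2 and 3 and 1239.8, 1283 and 1828 CPM in the App NL-G-F veh mice. It was 1412, 1396 and 1824 CPM in WT BRICHOS mice and 1280.2, 1350.0 and 1927 CPM in App NL-G-F BRICHOS mice. In each group a single mouse stood above the other two, and the groups overlapped. The log2 fold change between App NL-G-F and WT veh mice was 0.21 (SE 0.232, adjusted p = 0.507). This and all following fold changes were fitted and tested in edgeR by quasi-likelihood, and p-values were adjusted over the 15425 genes with the method of Benjamini and Hochberg.

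*Fosb* (ENSMUSG00000003545, chr7:19302696-19310051, minus strand), whose product pairs with Jun proteins like that of *Fos*, was at 431, 791 and 321 CPM in WT veh mice and at 924, 937 and 887 CPM in App NL-G-F veh mice. The App NL-G-F mice were close to each other and above every WT mouse, whereas WT mouse 2 was far above WT mouse 3. The log2 fold change was 0.83 (SE 0.302, adjusted p = 0.0496). In BRICHOS mice the levels were 499, 466 and 735 CPM in WT and 591, 936 and 1033 CPM in App NL-G-F mice, where the groups overlapped and the log2 fold change was 0.59 (SE 0.301, adjusted p = 0.137). The call between veh mice was close to the threshold and was lost when any of 9 libraries was left out, with log2 fold changes between 0.58 and 1.28. It was kept without WT mouse 2, without WT BRICHOS mouse 3 and without App NL-G-F BRICHOS mouse 1.

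*Jun* (ENSMUSG00000052684, chr4:95049034-95052222, minus strand) encodes the partner of Fos proteins in AP-1, and it was the only gene of the 10 that fell under TMM scaling. WT veh mice were at 2800.3, 3583 and 2449 CPM and App NL-G-F veh mice at 1636, 1893 and 2428 CPM. In BRICHOS mice the levels were 2988, 3202 and 3386 CPM in WT and 1922, 2421 and 2183 CPM in App NL-G-F mice. Every App NL-G-F mouse was below every WT mouse, with a median of 2053 CPM (1636 to 2428) in the 6 App NL-G-F libraries and of 3095 CPM (2449 to 3583) in the 6 WT libraries. The log2 fold change was -0.57 (SE 0.16, adjusted p = 0.016) in veh mice, -0.55 (SE 0.16, adjusted p = 0.0161) in BRICHOS mice and -0.56 (SE 0.113, adjusted p = 0.00147) over both. The call in veh mice was lost without WT veh mouse 2, App NL-G-F veh mouse 1 or App NL-G-F veh mouse 2, that in BRICHOS mice without App NL-G-F BRICHOS mouse 1, and the call over both was kept with any library left out, with log2 fold changes of -0.64 to -0.48. *Jun* overlaps the antisense gene *Junos*, and how strand was used in counting is not stated. *Junos* had 39 to 157 counts in a library, against 25297 to 60480 for *Jun*.

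*Junb* (ENSMUSG00000052837, chr8:84974484-84978718, minus strand), whose product can hold back Jun at AP-1 sites, was at 2676, 3145 and 2874 CPM in WT veh mice and at 2860.3, 3340.0 and 3792 CPM in App NL-G-F veh mice, which overlapped. The log2 fold change was 0.20 (SE 0.138, adjusted p = 0.277). In BRICHOS mice, 2422, 3352 and 3516 CPM in WT stood against 3535, 3805 and 3624 CPM in App NL-G-F mice, without overlap but with a log2 fold change of only 0.24 (SE 0.138, adjusted p = 0.185). *Junb* overlaps *Prdx2* on the opposite strand, which was at 53.0 to 81.7 CPM.

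*Jun* and *Junb* thus differed from each other between the strains in a way that no library scaling touches. The ratio of the count of *Jun* to that of *Junb* was 1.05, 1.14 and 0.852 in WT veh mice and 1.23, 0.955 and 0.963 in WT BRICHOS mice. It was 0.572, 0.567 and 0.640 in App NL-G-F veh mice and 0.544, 0.636 and 0.602 in App NL-G-F BRICHOS mice. The ratio of *Jun* to *Atf3* was 2.27 to 2.92 in WT and 0.989 to 1.53 in App NL-G-F libraries, again without overlap. Of the other ratios computed, that of *Fosb* to *Fos* was 0.313 to 0.462 in WT and 0.462 to 0.745 in App NL-G-F libraries, with the highest WT value just above the lowest App NL-G-F value, and that of *Nr4a1* to *Egr1* was 0.256 to 0.403 and 0.381 to 0.803, which overlapped. These 4 ratios were chosen after the levels had been seen and were not tested.

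*Atf3* (ENSMUSG00000026628, chr1:191170296-191218039, minus strand), a stress-induced factor that pairs with Jun proteins, rose. Its level was 1115, 1440.3 and 949 CPM in WT veh mice and 1654, 1879 and 1586 CPM in App NL-G-F veh mice, and 1024, 1261 and 1491 against 1558, 2063 and 1835 CPM in WT and App NL-G-F BRICHOS mice. All 6 App NL-G-F libraries (median 1745 CPM) were above all 6 WT libraries (median 1188 CPM). The log2 fold change was 0.55 (SE 0.168, adjusted p = 0.0243) in veh mice, 0.53 (SE 0.168, adjusted p = 0.0245) in BRICHOS mice and 0.54 (SE 0.119, adjusted p = 0.00262) over both. The call in veh mice was lost without WT veh mouse 1, WT veh mouse 3 or App NL-G-F veh mouse 2. The calls of *Atf3* and *Ier2* in BRICHOS mice were each lost without WT mouse 1 or 2 or App NL-G-F mouse 2 or 3 of these groups, and the calls over both treatments were kept with any library left out.

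*Egr1* and *Nr4a1* encode transcription factors outside AP-1, a zinc finger protein and an orphan nuclear receptor. *Egr1* (ENSMUSG00000038418, chromosome 18) was at 2466, 2765 and 2325 CPM in WT veh mice and at 1722, 2414 and 3059 CPM in App NL-G-F veh mice, whose range held all 3 WT values. The log2 fold change was -0.07 (SE 0.181, adjusted p = 0.782), with a 95% confidence interval of -0.47 to 0.33. In BRICHOS mice it was at 2204, 3005 and 3056 CPM in WT and at 2248, 2267 and 2476 CPM in App NL-G-F mice, with a log2 change of -0.24 (SE 0.181, adjusted p = 0.307).

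*Nr4a1* (ENSMUSG00000023034, chr15:101254269-101274795, plus strand) rose in App NL-G-F veh mice. Its level was 726, 708 and 905 CPM in WT veh mice and 1182, 1543 and 1164 CPM in App NL-G-F veh mice, without overlap, a log2 change of 0.73 (SE 0.186, adjusted p = 0.00918). In BRICHOS mice the levels were 820.0, 1062 and 1232 CPM in WT and 1372, 1819.8 and 1194 CPM in App NL-G-F mice. These groups overlapped, and the log2 fold change of 0.49 (SE 0.185, adjusted p = 0.0501) lay just beyond the threshold. The call in veh mice was kept with any single library left out, as was that of *Ier2*.

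The remaining 3 genes encode products that are not DNA-binding factors of this kind. *Ier2* (ENSMUSG00000053560, chr8:84661331-84662852, minus strand), which encodes a small nuclear protein, was at 286, 347 and 323 CPM in WT veh mice and at 392, 530.0 and 659 CPM in App NL-G-F veh mice. Under BRICHOS it was at 301, 417 and 455 CPM in WT and at 530.4, 588 and 584 CPM in App NL-G-F mice. Neither pair of groups overlapped, and *Ier2* rose by a log2 change of 0.72 (SE 0.179, adjusted p = 0.00808) in veh and of 0.54 (SE 0.179, adjusted p = 0.0303) in BRICHOS mice.

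*Dusp1* (ENSMUSG00000024190, chr17:26505590-26562128, minus strand), which encodes a phosphatase that switches off p38, JNK and ERK kinases, was at 520.0, 744 and 461 CPM in WT veh mice and at 788, 852 and 1043 CPM in App NL-G-F veh mice. It rose between these groups without overlap (log2 fold change 0.64, SE 0.192, adjusted p = 0.0223). In BRICHOS mice, 790.0, 663 and 896 CPM in WT stood against 735, 893 and 1075 CPM in App NL-G-F mice, which overlapped (log2 fold change 0.20, SE 0.191, adjusted p = 0.42). In the annotation, 4 further genes lie within or across *Dusp1*, 2 of which run in the same direction, so its count is less certain than those of the other genes. *Btg2* (ENSMUSG00000020423, chr1:134075170-134079120, minus strand), an antiproliferative gene, was at 1098, 1205 and 1273 CPM in WT veh mice and at 1259, 1604 and 1819 CPM in App NL-G-F veh mice. These groups overlapped in App NL-G-F mouse 1, and the log2 fold change was 0.39 (SE 0.136, adjusted p = 0.0427). In BRICHOS mice it was at 1209, 1474 and 1623 CPM in WT and at 1673, 1951 and 1763 CPM in App NL-G-F mice, without overlap (log2 fold change 0.32, SE 0.136, adjusted p = 0.0768). In veh mice, the call of *Dusp1* was lost without WT mouse 1 or 3 or App NL-G-F mouse 3. That of *Btg2* was lost without any WT veh mouse in turn, App NL-G-F veh mouse 2 or 3, WT BRICHOS mouse 2 or App NL-G-F BRICHOS mouse 3.

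In all, 7 of the 10 genes passed an adjusted p-value under 0.05 between App NL-G-F and WT veh mice, where 37.0% of all tested genes did. Of these, 6 rose (*Fosb*, *Atf3*, *Ier2*, *Dusp1*, *Nr4a1* and *Btg2*, against 20.1% of all tested genes) and *Jun* fell (16.9% of all tested genes). The median log2 fold change of the 10 genes was 0.47 and that of all tested genes -0.02. The levels of the 2 groups did not overlap in 6 of the 10 genes, where 50.9% of all tested genes did not overlap. Between App NL-G-F and WT BRICHOS mice, 3 of the 10 genes passed (*Atf3* and *Ier2* rose, *Jun* fell), where 42.5% of all tested genes passed, 20.8% as higher and 21.8% as lower. With the replicate number as a block, *Junb*, *Nr4a1* and *Btg2* passed as higher too, 6 calls in all, against 44.2% of all tested genes. Levels did not overlap in 5 of the 10 genes and in 51.7% of all tested genes, and the median log2 fold change of the 10 genes was 0.28. Over both treatments together, 7 genes passed, the same as in veh mice, where 53.9% of all tested genes passed. All 6 App NL-G-F libraries lay on 1 side of all 6 WT libraries in 2 of the 10 genes and in 29.6% of all tested genes. With TMM scaling and no covariate, no gene of the 10 reached a log2 fold change of 1 in any comparison over the 12 libraries.

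These counts moved with several choices, among them the scaling and marker scores as covariates. When libraries were scaled by their total counts alone, the median log2 fold change of all genes moved to -0.21 in veh and to -0.31 in BRICHOS mice, and 2 genes rose (*Ier2* and *Nr4a1*) and 1 fell (*Jun*) between veh mice. Under that scaling no gene rose and *Jun* and *Egr1* fell between BRICHOS mice, and *Junb* and *Dusp1* changed sign there without a call, as *Fos* and *Junb* did over both treatments. *Jun* was lower under both scalings, with log2 fold changes of -0.76 and -0.83 by total counts. Under that scaling 46.7% of all tested genes passed between veh mice and 55.6% between BRICHOS mice.

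With the astrocyte marker score in the fit as a covariate, 0 of the 10 genes and 12.4% of all tested genes passed between veh mice, and with the neuronal score 0 of 10 and 7.95%. The fitted folds did not all shrink with the calls. With the astrocyte score, the log2 fold change was 0.97 for *Ier2*, 0.91 for *Dusp1*, 0.74 for *Nr4a1*, 0.64 for *Btg2*, 0.81 for *Fosb* and 0.42 for *Atf3*, and that of *Jun* was -0.20. With the neuronal score it was 1.40 for *Fosb*, 1.15 for *Ier2*, 1.14 for *Atf3*, 1.01 for *Nr4a1* and -0.43 for *Jun*. Between BRICHOS mice, 4 of the 10 genes passed with the astrocyte score, where 42.2% of all tested genes did, and 0 with the neuronal score, where 2.63% did. With the neuronal score the log2 fold change there was 1.31 for *Atf3*, 1.09 for *Ier2* and -0.38 for *Jun*, the 3 genes called without it. Both scores differ between the strains in veh mice, the neuronal score also in BRICHOS mice, and their part in the result was not tested.

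**Figure D2:**
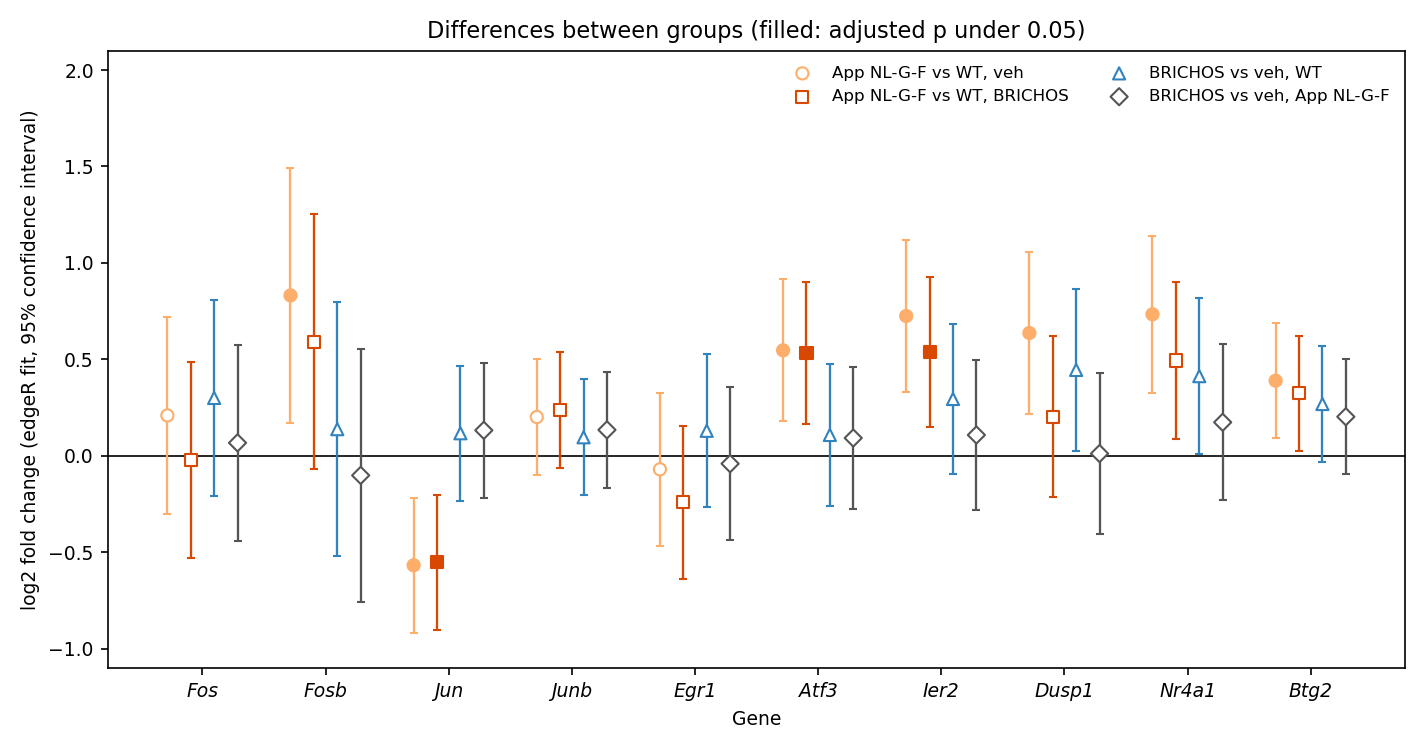
Fitted log2 fold change (y axis) of each gene (x axis) in 4 comparisons, with 95% confidence intervals from edgeR's fit. Filled symbols have an adjusted p-value under 0.05. Strain differences reach from -0.57 for *Jun* to 0.83 for *Fosb* in veh mice, and no treatment difference is filled; with total counts as the scaling, *Junb* and *Dusp1* change sign in the strain comparison of BRICHOS mice.

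No gene of the 10 passed the test for rh Bri2 BRICHOS R221E against veh. In App NL-G-F mice, 0 of 10 passed the adjusted threshold in edgeR and in DESeq2, where 0.00648% of all tested genes passed in edgeR and 0.88% of the genes with an adjusted p-value in DESeq2. At an unadjusted p-value under 0.05 the count was 0 of 10 as well, against 10.8% of all tested genes. The groups overlapped for all 10 genes, and did not for 13.5% of all tested genes. Log2 fold changes were above 0 for 8 of the 10 genes, with a median of 0.10. They lay between -0.10 for *Fosb* and 0.20 for *Btg2*, and the 95% confidence intervals reached from -0.76 to 0.58. For *Jun* the interval was -0.22 to 0.48, for *Atf3* -0.28 to 0.46 and for *Junb* -0.17 to 0.44.

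In WT mice, 0 of 10 genes passed the adjusted threshold in edgeR and in DESeq2, where 0% of all tested genes passed in edgeR and 0.541% in DESeq2, although all 10 fold changes were above 0, with a median log2 fold change of 0.20. At an unadjusted p-value under 0.05 there were 2 genes, *Dusp1* with a log2 change of 0.44 (SE 0.192, adjusted p = 0.413) and *Nr4a1* with 0.41 (SE 0.185, adjusted p = 0.43), against 11.4% of all tested genes. The WT groups overlapped for all 10 genes, and did not for 17.5% of all tested genes. Marker levels moved in this comparison as well, with no marker past the adjusted threshold. All 6 border macrophage markers were higher in WT BRICHOS mice (5 at an unadjusted p-value under 0.05), with summed levels of 515 to 629 against 389 to 459.6 CPM. All 5 ependymal markers (median log2 fold change 1.23) and all 5 choroid plexus markers (1.30) were higher too, and all 10 microglial markers were lower (-0.10). In App NL-G-F mice under BRICHOS, all 8 astrocyte markers were lower (median -1.40, each at an unadjusted p-value under 0.05) and 9 of 10 microglial markers were higher (0.08). All 6 endothelial (-0.64, 5 at an unadjusted p-value under 0.05), all 6 mural (-0.57, 3) and all 5 choroid plexus markers (-0.70) were lower too. Higher were all 6 oligodendrocyte (0.08) and 5 of 6 neutrophil markers (0.29), none at an unadjusted p-value under 0.05. The part of these cells in the values of the 10 genes was not tested. Averaged over the strains, 0 of 10 genes passed in edgeR and in DESeq2 (0% of all tested genes in edgeR and 0.136% in DESeq2), and 2, *Nr4a1* with a log2 change of 0.29 (SE 0.131, adjusted p = 0.682) and *Btg2* with 0.24 (SE 0.0962, adjusted p = 0.652), had an unadjusted p-value under 0.05, against 7.21% of all tested genes. All 10 fold changes were above 0 in this average, with a median log2 fold change of 0.15. The WT veh libraries enter both the treatment comparison in WT mice and that of the strains in veh mice. Whether the treatment acted differently in the strains was tested by the interaction term. It passed the adjusted threshold for 0 of the 10 genes in edgeR and in DESeq2, where 0.00648% of all tested genes passed in edgeR and 1.64% in DESeq2, and 0 had an unadjusted p-value under 0.05, against 14.8% of all tested genes. The largest was -0.43 for *Dusp1* (95% confidence interval -1.03 to 0.16, adjusted p = 0.484), so a difference of the treatment effects on *Dusp1* was not shown.

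Mice of the same group differed more in these genes than in most genes at or above the level of the lowest of them, *Ier2*. The within-group SD of log2 CPM, pooled over the 4 groups, had a median of 0.258 for the 10 genes, 0.164 for all tested genes and 0.0947 for the 287 genes with a mean level at or above that of *Ier2*. It was highest for *Fosb* (0.433) and *Fos* (0.327), followed by *Dusp1* (0.272), *Nr4a1* (0.262), *Ier2* and *Egr1* (both 0.258), *Atf3* (0.236) and *Jun* (0.221). The lowest were *Btg2* (0.190) and *Junb* (0.189), and these were still above 81.2% and 80.8% of these 287 genes, which were not matched to the level of each gene. The median of the 10 genes stayed between 0.229 and 0.271 with any single library left out.

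How much of the variation went with the strain differed among the 10 genes. The strain took 67.9% of the sum of squares of log2 CPM over the 12 libraries for *Jun*, 65.6% for *Atf3*, 63.6% for *Ier2*, 57.4% for *Nr4a1* and 51.9% for *Fosb*. For *Egr1* and *Fos*, 83.7% and 81.1% lay between mice of the same group, and the strain took 13.1% and 2.64%. The treatment took at most 20.4%, for *Btg2*.

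**Figure D3:**
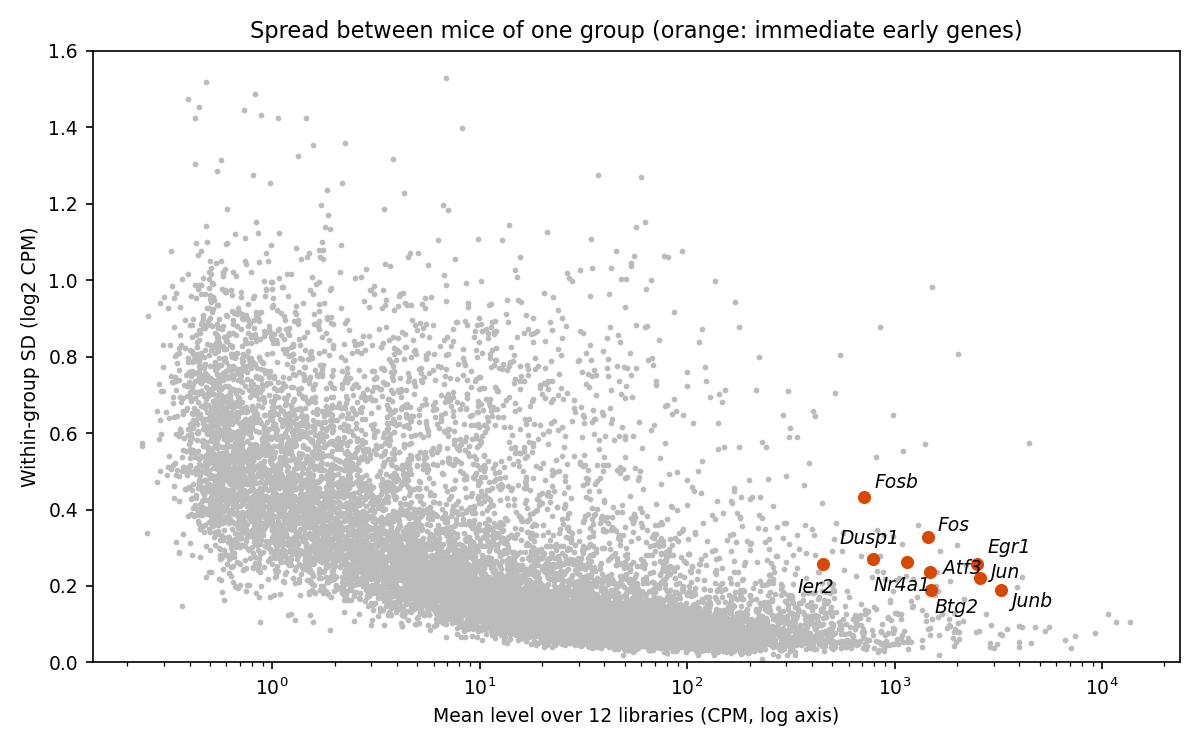
Within-group SD of log2 CPM (y axis) against the mean level over the 12 libraries (CPM, log axis) for the tested genes (grey) and the 10 genes (orange, named). The 10 genes lie between 0.189 and 0.433, above most of the 287 genes at or above the level of *Ier2*; 8 other genes above 1.6 lie outside the axis.

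Much of this spread was shared. The deviation of each library from the mean of its group was taken for each gene, and these deviations were correlated between genes over the 12 libraries. Of the 45 pairs of the 10 genes, 42 had a positive Pearson's r, with a median of 0.58. Among the 277 other genes with a mean level at or above that of *Ier2*, 68.6% of pairs were positive and the median r was 0.25. The points of a pair share their libraries and their scaling, and centring on 4 group means leaves 8 degrees of freedom, so no p-values are given. With libraries scaled by total counts the median of the 45 pairs was 0.50, and without the 2 libraries farthest from the median, WT veh mouse 2 and WT BRICHOS mouse 1, it was 0.51.

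Many of the closest pairs lay within 2 sets, which were chosen from these same values. *Junb*, *Egr1*, *Ier2* and *Btg2* had r values of 0.84 to 0.96 with each other (*Junb* and *Ier2*, r = 0.96, Spearman's rho = 0.96). *Fos*, *Fosb* and *Dusp1* had r values of 0.76 to 0.93 (*Fos* and *Dusp1*, r = 0.93, rho = 0.87). Between the sets r was 0.19 to 0.64. Some pairs with genes outside the sets were as close as those within them, among them *Fosb* and *Atf3* (r = 0.85, rho = 0.87), *Jun* and *Dusp1* (r = 0.80), *Jun* and *Egr1* (r = 0.77) and *Fos* and *Jun* (r = 0.77), against 0.76 for *Fos* and *Fosb*. In the 6 WT libraries alone the first set was at 0.74 to 0.99, the second at 0.94 to 0.97 and the pairs between them at 0.07 to 0.57. In the 6 App NL-G-F libraries the corresponding ranges were 0.90 to 0.99, 0.46 to 0.94 and 0.07 to 0.72, so there the sets overlapped in r. *Jun* went with the mean of the 9 other genes most closely (r = 0.85). *Nr4a1* stood apart from the mean of the others (r = 0.13) and from *Fos* (-0.29), but less so from *Btg2* (0.58) and *Junb* (0.47). Its r values with single genes ran from -0.24 to 0.92 in WT and from -0.58 to 0.71 in App NL-G-F libraries.

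Single libraries follow the sets only in part. In WT veh mouse 2, *Fosb* was 0.72, *Fos* 0.49 and *Dusp1* 0.40 above the group mean of log2 CPM, while *Junb* was 0.12 and *Btg2* 0.02 above it. In App NL-G-F veh mouse 1, *Egr1* was at -0.44, *Ier2* at -0.39 and *Btg2* at -0.29, while *Fosb* was at 0.01, but *Fos* (-0.20) and *Dusp1* (-0.17) were about as low as *Junb* (-0.21). In App NL-G-F BRICHOS mouse 3, *Fos* was at 0.37 and *Fosb* at 0.32, while *Junb* was at -0.01 and *Nr4a1* at -0.27.

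The libraries numbered 1 were low. Averaged over the 10 genes, the library of mouse 1 was below the mean of its group in all 4 groups, by -0.11 in WT veh, -0.22 in WT BRICHOS, -0.21 in App NL-G-F veh and -0.17 in App NL-G-F BRICHOS mice. Of its 40 values, 38 were below the group mean, against 9 of 40 for mouse 2 and 13 of 40 for mouse 3. The same share over all tested genes was not taken, so a trait of these genes and one of these libraries cannot be told apart. Values centred on the mean of 3 mice depend on each other, and the genes vary together, so the 40 values are not independent. Whether equal numbers mark a shared day of digestion is not given in the sources used here. Across the 12 libraries, the mean deviation of the 10 genes had r = 0.35 (rho = 0.38) with the total count, -0.77 (rho = -0.81) with the TMM factor, which also enters the CPM values, and 0.86 (rho = 0.81) with the share of counts in the 50 highest genes, all centred in the same way. *Junb*, *Jun* and *Egr1* are among the highest genes themselves, and with the 10 genes taken out of that share r was 0.82 (rho = 0.78). For the scores of 12 marker lists, r was 0.69 (rho = 0.61) for microglia, 0.56 (rho = 0.48) for neutrophils, 0.33 (rho = 0.24) for neurons and 0.31 (rho = 0.27) for ependymal cells, and it was -0.48 (rho = -0.40) for oligodendrocytes, -0.43 (rho = -0.23) for T cells, -0.24 (rho = -0.18) for mural cells and -0.21 (rho = -0.33) for astrocytes. The other 4 lists lay between -0.20 and -0.02. The T cell score rests on *Cd2* alone, the only 1 of 5 markers that was tested. Its group means of 0.196 to 0.705 CPM were near the smallest level taken as detectable. The part of these measures in the shared spread was not tested.

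**Figure D4:**
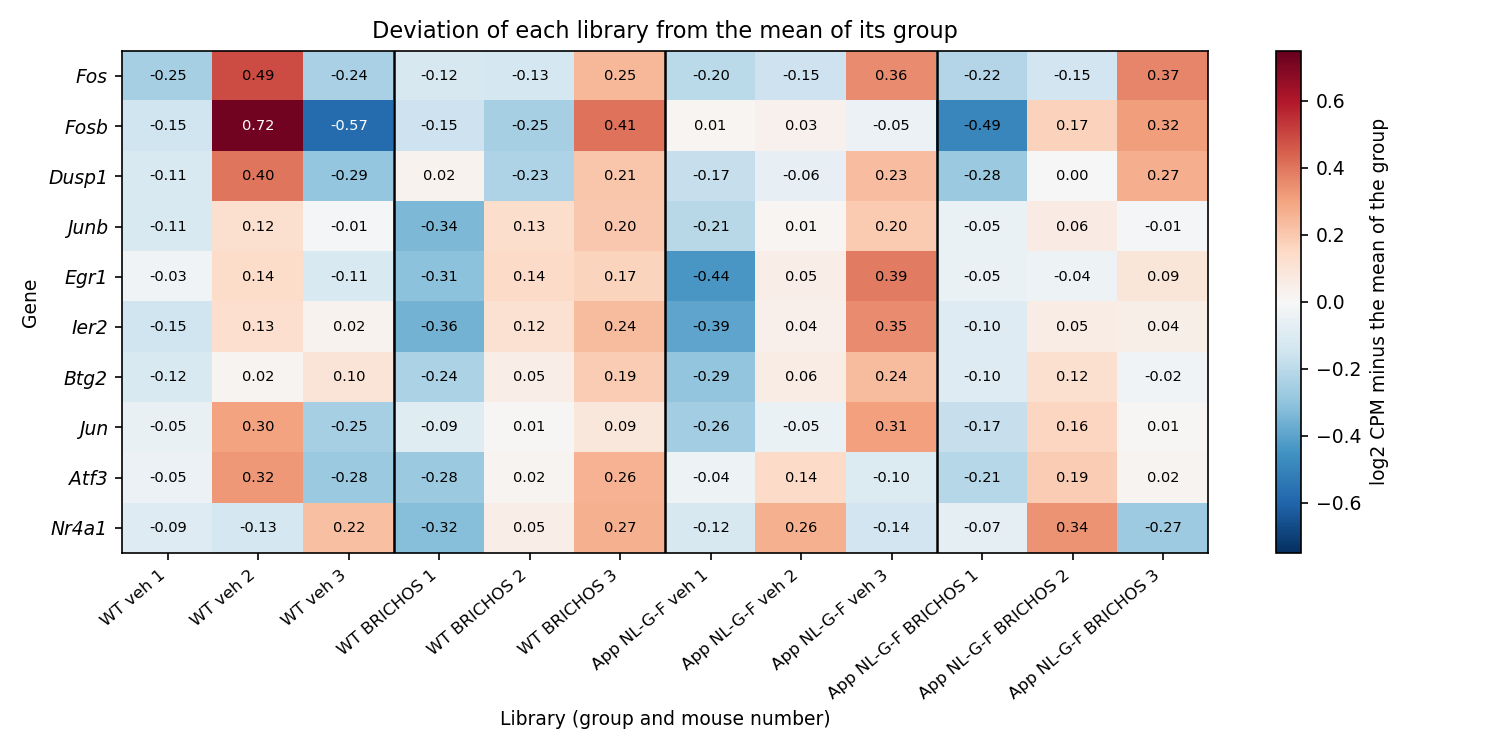
Deviation of log2 CPM from the mean of the group (colour and printed value) for each gene (rows) in each library (columns, 3 per group). The column of mouse 1 is blue for nearly all genes in every group (38 of 40 values below 0), and *Fos*, *Fosb* and *Dusp1* in the top rows differ from *Junb*, *Egr1*, *Ier2* and *Btg2* in several columns.

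The 250 bases before the annotated start were read for the 8 of these genes that have a promoter in the RefSeq table (GRCm38.p6), which are all but *Egr1* and *Ier2*. Both strands were searched for TGACG, the core of the cAMP response element (CRE) that CREB and ATF proteins bind, for the full CRE TGACGTCA, for the AP-1 site TGANTCA, for the AP-1-like TGACATCA known from the *Jun* promoter, for the EGR site GCGNGGGCG and for the CArG box of SRF. TGACG, which is also part of the full CRE, was found in 7 of the 8 promoters, all but that of *Jun*, and in 17.8% of 32851 promoter windows, each also read over 250 bases. The full CRE was in the promoters of *Dusp1* and *Btg2* and in 1.55% of windows, and the EGR site in those of *Fosb*, *Nr4a1* and *Btg2* and in 4.70% of windows. TGACATCA was in that of *Jun* and in 2.93% of windows. The AP-1 site (6.75% of windows) and the CArG box (1.47% of windows) had no match in the 8 promoters, which says only that these letters are not in this window. Base composition was not matched in these shares. The promoters of 5 genes are printed, with every match in capitals, to show the contrast: *Dusp1* (chr17:26508473-26508722, minus strand) and *Btg2* (chr1:134079156-134079405, minus strand) with the full CRE, *Fos* (chr12:85473640-85473889, plus strand) with TGACG at 2 places, *Nr4a1* (chr15:101266596-101266845, plus strand), the gene that stood apart in the shared spread, with TGACG at 4 places, all on the opposite strand as CGTCA, and *Jun* (chr4:95052223-95052472, minus strand), the gene that fell, with TGACATCA alone. Each is written 5′ to 3′ in the direction of the gene.
Dusp1: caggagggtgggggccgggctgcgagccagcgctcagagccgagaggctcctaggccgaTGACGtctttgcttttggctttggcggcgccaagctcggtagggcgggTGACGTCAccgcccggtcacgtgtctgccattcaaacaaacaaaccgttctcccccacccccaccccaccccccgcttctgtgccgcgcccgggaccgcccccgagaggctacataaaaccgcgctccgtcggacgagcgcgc
Btg2: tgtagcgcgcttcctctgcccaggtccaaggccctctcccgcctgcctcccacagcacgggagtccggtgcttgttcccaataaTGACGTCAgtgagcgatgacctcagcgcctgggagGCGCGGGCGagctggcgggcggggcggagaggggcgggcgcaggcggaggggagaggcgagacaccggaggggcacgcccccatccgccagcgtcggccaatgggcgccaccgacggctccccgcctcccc
Fos: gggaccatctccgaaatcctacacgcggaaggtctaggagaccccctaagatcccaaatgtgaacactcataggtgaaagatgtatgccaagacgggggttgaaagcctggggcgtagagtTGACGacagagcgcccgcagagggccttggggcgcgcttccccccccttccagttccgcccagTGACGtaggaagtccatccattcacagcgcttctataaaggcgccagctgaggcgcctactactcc
Nr4a1: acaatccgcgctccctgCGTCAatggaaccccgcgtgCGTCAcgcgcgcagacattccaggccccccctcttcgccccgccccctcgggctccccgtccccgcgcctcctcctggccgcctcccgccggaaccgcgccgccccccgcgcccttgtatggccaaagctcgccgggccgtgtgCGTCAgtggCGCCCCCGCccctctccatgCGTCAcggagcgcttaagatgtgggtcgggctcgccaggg
Jun: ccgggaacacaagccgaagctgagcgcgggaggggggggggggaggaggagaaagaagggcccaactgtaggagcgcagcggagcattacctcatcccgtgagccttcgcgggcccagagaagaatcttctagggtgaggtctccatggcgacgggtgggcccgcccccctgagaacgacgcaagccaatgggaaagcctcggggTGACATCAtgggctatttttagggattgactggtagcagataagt
The start that RefSeq gives for *Dusp1*, *Nr4a1*, *Atf3* and, by a few bases, *Fosb* lies inside the longer span that GENCODE gives these genes. *Dusp1* and *Btg2* share the full CRE but fell into different sets of the shared spread, and a match of letters is a description, not a bound site.

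Other genes of the same pathways were taken from lists written by hand. In the wider AP-1 family (17 genes, among them *Jund*, *Fosl2*, and the Maf, Batf and Atf genes), 2 rose and 1 fell between App NL-G-F and WT veh mice, where 20.1% of all tested genes rose and 16.9% fell. *Maff*, a small Maf protein gene, rose from 44.2 ± 11.4 to 181 ± 29.9 CPM (n = 3; log2 fold change 2.03, adjusted p = 0.000398), and *Atf5* rose by 0.68. *Maf*, a larger relative, fell from 529 ± 20.1 to 249.5 ± 17.4 CPM (log2 fold change -1.08, adjusted p = 1.17e-06). The median of the list was 0.00 on the log2 scale. In BRICHOS mice, 4 rose and 2 fell (20.8% and 21.8% of all tested genes), with 2.20 for *Maff*.

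Of 7 relatives and co-repressors of *Egr1* and *Nr4a1*, 3 rose and 1 fell in each strain comparison, where 37.0% of all tested genes passed in either direction between veh mice and 42.5% between BRICHOS mice. *Nr4a3*, which encodes a receptor of the same family as that of *Nr4a1*, rose from 31.7 ± 2.47 to 180.1 ± 73.9 CPM (log2 fold change 2.51, adjusted p = 0.000465), and by 2.74 in BRICHOS mice. *Nab2*, a co-repressor of EGR proteins, rose from 39.4 ± 2.21 to 105 ± 12.3 CPM (log2 fold change 1.41, adjusted p = 5.53e-07), and *Nab1* by 0.33. *Egr3* fell from 202 ± 34.5 to 112 ± 31.5 CPM (log2 fold change -0.84, adjusted p = 0.0111), where *Egr1* did not pass the test.

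Of 42 other early response genes, 15 rose and 4 fell between veh mice (20.1% and 16.9% of all tested genes), and 13 rose and 5 fell between BRICHOS mice (20.8% and 21.8% of all tested genes). *Npas4*, an activity-dependent transcription factor gene, had a total of 7 counts in WT veh mice and of 90 in App NL-G-F veh mice. The ratio was 13.1 with a 95% counting interval of 6.09 to 33.4, which leaves out the spread between mice. In edgeR the log2 fold change was 3.64 (SE 0.441, adjusted p = 6.25e-05). Its mean of 0.158 CPM in WT veh mice was under the smallest level taken as detectable, so the size of the ratio is uncertain. In BRICHOS mice the totals were 5 and 118 counts. *Dusp5*, a phosphatase gene like *Dusp1*, rose by 1.75, *Gadd45b*, a stress response gene, by 1.68, *Irf1*, an interferon regulatory factor gene, by 1.24, and *Nfkbiz*, an NF-κB regulator gene, by 1.23. *Klf2*, a Krüppel-like factor gene, fell by 1.63. In BRICHOS mice the largest other changes were those of the matricellular protein genes *Ccn2* (-1.95), *Ccn1* (-1.91), of the cAMP-responsive factor gene *Crem* (1.82), *Gadd45b* (1.75) and *Dusp5* (1.58).

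The upstream kinases and factors (27 genes) moved both ways, with 7 higher and 8 lower between veh mice (20.1% and 16.9% of all tested genes) and a median log2 fold change of -0.08. *Mapkapk2*, a kinase downstream of p38, rose by 1.07 and *Elk3*, an SRF partner, by 0.42. *Rps6ka1*, an ERK-dependent kinase gene, fell by 0.87, *Mapk14*, which encodes p38α, by 0.53 and *Map2k7*, a JNK kinase gene, by 0.43. Between BRICHOS mice, 8 rose and 4 fell, against 20.8% and 21.8% of all tested genes. In 22 tested genes of another list of reported dissociation genes, 10 rose and 3 fell between veh mice, and 9 rose and 2 fell between BRICHOS mice, beside the same shares of all tested genes. The cytokine gene *Il1b* rose from 331 ± 20.6 to 1818 ± 399 CPM (log2 fold change 2.46, adjusted p = 7.05e-06), the chemokine gene *Cxcl2* by 2.40, *Cd83*, an activation marker of immune cells, by 1.35 and *Gem*, a small GTPase gene, by 1.25. The heat shock gene *Hspa1a* fell by 1.31 (SE 0.470, adjusted p = 0.0476), close to the threshold. Its near-identical copy *Hspa1b* did not pass (log2 fold change -1.27, SE 0.497, adjusted p = 0.0658). *Txnip*, a thioredoxin-binding protein gene, fell by 1.28.

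The 10 tested genes outside the set whose deviations were most like the mean deviation of the 10 genes over the 12 libraries were *Vps29* (r = 0.93), *Fscn1*, *Mrtfa*, *Ergic3*, *Gtf2f1*, *Zscan21*, *Spry1*, *Snx25*, *Ptpa* and *Triobp* (r = 0.92). They are the extreme of 15415 genes, and 1 of them, *Mrtfa*, which encodes a co-activator of SRF, was on the list of upstream factors. An r above 0.5 was found for 17 of the 42 other early response genes (40.5%), 3 of the 7 EGR and NR4A genes, 5 of the 17 AP-1 genes, 7 of the 27 upstream genes and 4 of the 22 other dissociation genes (18.2%), and for 13.2% of all other tested genes. Between BRICHOS and veh mice, none of these list genes passed in edgeR. In App NL-G-F mice, 38 of the 42 early response and 21 of the 22 dissociation genes were higher, with median log2 fold changes of 0.20. For all tested genes it was 0.01, with 8023 of 15425 higher. The AP-1, EGR and NR4A and upstream lists had medians of 0.09, 0.16 and 0.04. Averaged over the strains, 36 of 42 and 20 of 22 were higher, 8 and 6 at unadjusted p under 0.05 (532 of all tested genes).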

How the data were processed

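RNA-sequencing libraries of CD11b-positive cortical microglia from 12 mice were analysed, prepared with a stranded mRNA kit. The authors trimmed reads with Cutadapt, aligned them to GRCm38 with STAR and counted them per gene with featureCounts, and deposited raw counts per Ensembl gene without normalization; the strand setting is not given in the sources used here. Samples were grouped by the labels. Of 55487 genes, 55227 were matched to symbols in GENCODE M21. With R 4.3.3 and edgeR 4.0.16, genes were kept by filterByExpr (minimum count 10), scaled by TMM and fitted with 4 group means over all 12 libraries, and contrasts were tested by quasi-likelihood with Benjamini-Hochberg adjustment over 15425 genes at 0.05. Log2 CPM used a prior count of 2. Library totals were 12433402 to 17889654. The 10 genes and all lists were chosen with earlier results of these data known. All 10 genes were named in every comparison, with up to 6 called genes of each other list with the largest fold change and the 10 genes most like their mean deviation. A gene that this rule would name is not reported here. Alternatives were DESeq2 1.42.0 (size factors, Wald test), other filters, only the compared groups, the replicate number as a block, marker scores as covariates, each library left out and, chosen after seeing the data, total counts. Since each library is from another mouse, p-values set group differences against the spread between mice, which includes the handling of each sample.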

Additional observations from a re-analysis of the deposited data

How the results depend on the processing

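No call between the strains changed its direction under any alternative tried. Between App NL-G-F and WT veh mice, the 7 calls became 0 with the astrocyte and 0 with the neuronal marker score as a covariate. They became 3 with total counts, 5 with only the compared groups (*Fosb* and *Btg2* lost) and 6 with DESeq2's Wald test (*Fosb* lost). The share of all tested genes went from 37.0% to 12.4%, 7.95%, 46.7%, 39.8% and 32.6% in that order. Between BRICHOS mice, the 3 calls became 5 with DESeq2's Wald test, 5 without a filter on low counts, 6 with a replicate block (*Junb*, *Nr4a1* and *Btg2* were gained), 0 with the neuronal score and 2 with total counts, while the share of all tested genes went from 42.5% to 33.3%, 20.7%, 44.2%, 2.63% and 55.6%. Over both treatments, the 7 calls became 2 with the astrocyte score, 0 with the neuronal score and 5 with total counts, while that share went from 53.9% to 31.5%, 5.19% and 66.2%. With each library left out in turn, the counts ran from 3 to 7, from 1 to 5 and from 6 to 8. The lowest counts came without WT veh mouse 1 or 3 or App NL-G-F mouse 2 (3 calls each), followed by App NL-G-F mouse 3 of the veh groups (4 calls), and without WT BRICHOS mouse 1 or 2 or App NL-G-F mouse 2 (1 call each), and the highest for BRICHOS mice without WT mouse 3 (5 calls). The causes of these moves were not tested. Treatment and interaction counts were 0 under every alternative. Of 1440 values of single genes under an alternative, 79 lost a call and 22 gained one, and 74 changed sign without a call on either side. Whether equal numbers pair the libraries is not given, and their deviations correlated at 0.06 to 0.17 between WT and App NL-G-F veh mice and at -0.01 to 0.22 between the BRICHOS groups, but at 0.14 to 0.26 between WT veh and App NL-G-F BRICHOS mice. The block was therefore kept as an alternative. With it, the counts were 7 between veh mice and 8 over both treatments. With 3 mice a group, differences of the size of the intervals given above could not be resolved, while depth was no limit for these 10 genes.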

Other observations

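Among the markers of other cell types, those of neutrophils summed to 34.2 to 426 CPM in WT and to 12.0 to 35.3 CPM in App NL-G-F libraries, those of oligodendrocytes to 4009 to 16563 and 2972 to 5793 CPM, and those of choroid plexus to 858 to 6768 and 639 to 1969 CPM. Endothelial markers summed to 525 to 746 and 372 to 606 CPM, mural markers to 198 to 313 and 75.2 to 181 CPM, ependymal markers to 11.8 to 38.7 and 5.82 to 14.6 CPM, and B cell markers to 10.9 to 12.8 and 5.11 to 6.90 CPM. Of 5 T cell markers only 1 passed the filter on low counts. Mitochondrial genes took 1.62% to 2.06% of the counts in WT and at most 1.21% in App NL-G-F libraries, and TMM factors were at least 1.05 in WT and 0.875 to 0.952 in App NL-G-F libraries. The part of these measures in the strain differences of the immediate early genes was not tested.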
